A study of Mus musculus with 12 samples.

Results

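The proteasome is the barrel-shaped protease that degrades proteins tagged with ubiquitin, and its subunits were followed here as 36 genes in gonadal white adipose tissue (GWAT) of mice. Members were all protein-coding genes whose symbol starts with Psma, Psmb, Psmc or Psmd followed by a number, leaving out the 3 interferon-inducible catalytic subunits, with a mean of at least 1 CPM (a count scaled to the depth of its library) over the 12 libraries. Of the 21646 protein-coding genes in the table, 40 symbols matched. After the 3 inducible subunits were set aside, Psmb11, the thymus-specific catalytic subunit, fell under the minimum with a mean of 0.0018 CPM. The 36 members comprised 15 genes of the 20S core (8 alpha and 7 beta), 20 of the 19S cap (6 ATPases, 11 non-ATPase subunits and the 3 assembly chaperones Psmd5, Psmd9 and Psmd10) and Psmc3ip, a meiotic recombination factor that matched by name alone and was kept outside both classes. The members just inside the minimum were Psmc3ip at 7.59 CPM and Psma8 at 8.05 CPM over the 12 libraries, and both means rested mostly on 1 library described below.

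In the 20S core, rings of alpha subunits (Psma) gate the entrance and rings of beta subunits (Psmb) line the chamber, where Psmb5, Psmb6 and Psmb7 carry the chymotrypsin-like, caspase-like and trypsin-like sites. The 19S cap binds ubiquitin chains, removes them and feeds the unfolded substrate inward through its ATPase ring (Psmc). Transcription of these genes in mammals is raised in concert by NRF1 (Nfe2l1), a factor that is itself a substrate of the proteasome and that is known in brown fat for keeping proteasome supply matched to demand.

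The mice were males of 22 to 24 weeks of age that had eaten a control diet (CD, 14% fat) or a high-fat diet (HFD, 60% fat) for 16 weeks from 6 weeks of age. All groups carried floxed Hoip alleles (Hoip fl/fl), HOIP (gene Rnf31) being the catalytic subunit of the complex that builds linear ubiquitin chains. The WT groups lacked the AdipoQ.Cre transgene and the HoipA-KO groups carried it, so that the Adiponectin promoter drives Cre, and loss of Hoip, in mature adipocytes while other cells of the depot keep the gene. Each group had 3 bulk RNA-seq libraries and each library was made from fat pooled from 3 mice, so the spread between libraries is a spread between pools. In whole tissue, fewer cells of a type and less RNA per cell cannot be told apart.

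Libraries held 30513500 to 60540260 estimated counts. WT CD replicate 3 stood apart, with a mean log2(CPM + 0.5) of 8.98 over 7 testis germ cell markers against 1.42 and 3.28 in the other WT CD libraries, and the study's own comparisons leave it out. The values and tests below therefore used 11 libraries, with 2 in the WT CD group, and results that change with all 12 are given beside them. Of these 2, WT CD replicate 2 also held markers of neighbouring tissue. Its 9 epididymal epithelium markers summed to 14580 CPM, against 1.21 CPM in WT CD replicate 1. The testis germ cell markers summed to 221 CPM in WT CD replicate 2 and 22 CPM in WT CD replicate 1. The part of such tissue in the WT CD values of the members was not tested. Rnf31 itself stood at 20.2 and 20.6 CPM in WT CD, 18.3, 17.8 and 19.7 in WT HFD, 17.9, 18.3 and 21.6 in HoipA-KO CD and 19.6, 19 and 22.5 in HoipA-KO HFD. The log2 fold change was -0.08 on CD and 0.13 on HFD. The groups overlapped, so a gene-wide count in whole fat, which covers exons outside the deleted stretch and cells without Cre, gave no check of the labels. Adipocyte markers were abundant in every group but summed to 21745 to 50682 CPM in WT CD and 22886 to 31266 CPM in WT HFD, against 6515 to 9457 CPM in HoipA-KO CD and 5667 to 8274 CPM in HoipA-KO HFD.

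All 36 members passed the expression filter and were tested. Apart from Psma8 and Psmc3ip, each was well expressed in each of the 11 libraries, from the 16.2 CPM of Psmd10 to the 363 CPM of Psmd2. Per kilobase of principal transcript, Psma7 (149 ± 37.5 CPM per kb, SD, n = 2) and Psmb6 (146 ± 35.2) led in WT CD and differed by less than their spread. In HoipA-KO CD the order was led by Psmb6 at 278 ± 44.2 (SD, n = 3), ahead of Psma7 at 188 ± 20.1 and Psmb5 at 182 ± 28.2, and the last pair did not differ beyond its spread. The chaperones Psmd9 and Psmd5 lay lowest of the core and cap genes other than Psma8, at 10.6 ± 0.264 and 10.7 ± 1.04 CPM per kb in WT CD. The members' median within-group SD was 0.19 on the log2 scale, against 0.27 for all genes tested. It was 0.24 for genes tested whose mean CPM was at least that of Psmd10, the least abundant member apart from Psma8 and Psmc3ip. Among the members the SD ran from 0.10 for Psmd9 to 0.50 for Psmd10. In the GENCODE vM21 annotation, exons of 9 members (Psma4, Psma5, Psmb7, Psmc3, Psmc3ip, Psmd1, Psmd3, Psmd9 and Psmd13) overlap a gene on the opposite strand and those of 2 (Psmb5 and Psmd1) a gene on the same strand. How the counting treated strand is not given in the sources used here, so reads from such overlaps may have been split between genes.

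**Figure D1:**
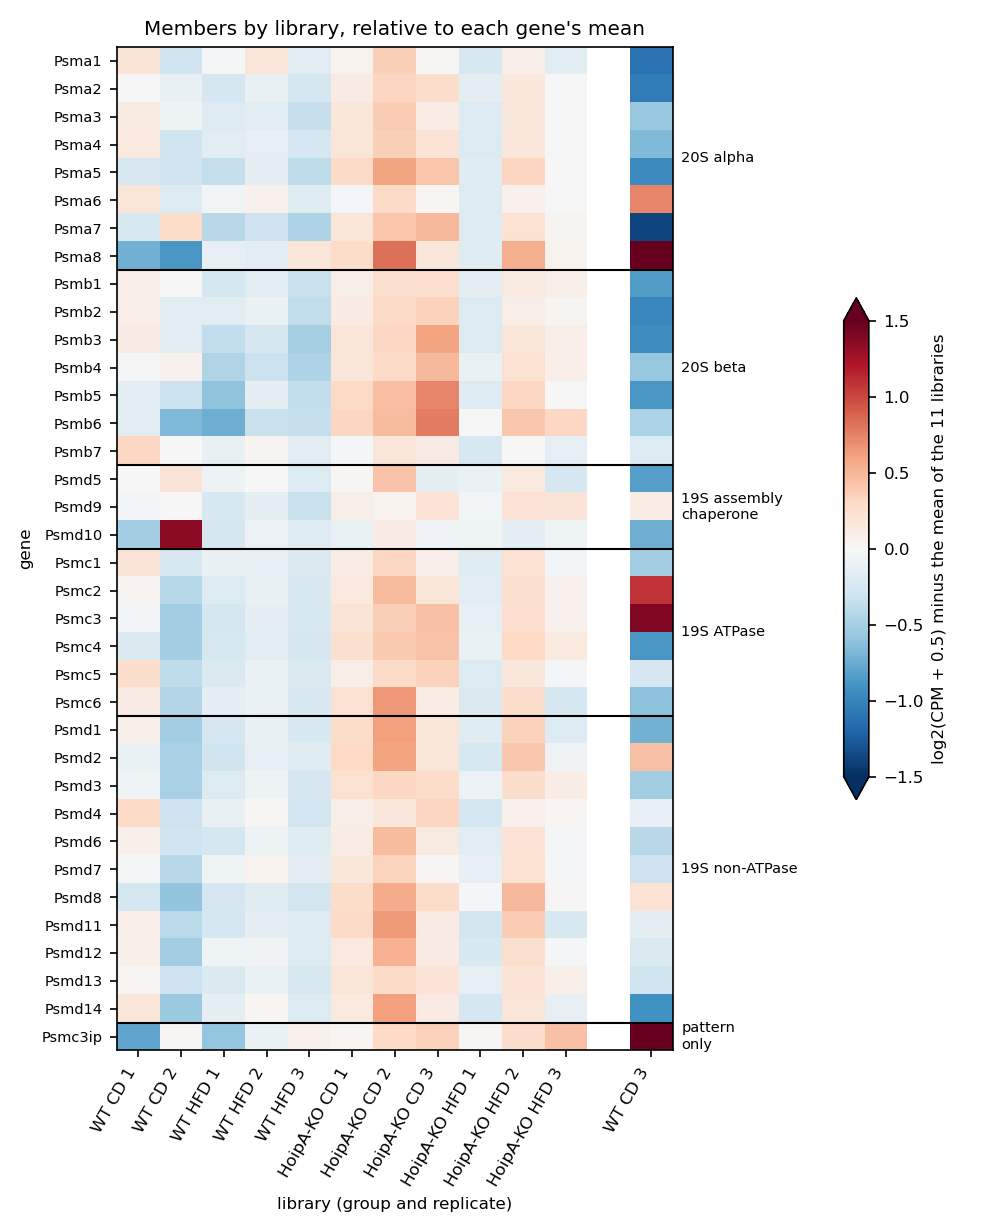
Heat map of the 36 members (rows, grouped by role) in the 12 libraries (columns), coloured by log2(CPM + 0.5) minus the gene's mean over the 11 libraries used for testing. HoipA-KO CD columns are mostly red, WT CD replicate 2 is blue for most of the cap with Psmd10 dark red at 59.8 CPM, and WT CD replicate 3, set apart on the right, is dark red for Psma8, Psmc3ip, Psmc3 and Psmc2.

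The first comparison asked how proteasome subunits differ in fat whose adipocytes lack HOIP when the diet is not fat-rich. On CD, 9 of 36 members were higher in HoipA-KO than in WT and 0 were lower in the quasi-likelihood test of edgeR, with p-values adjusted by Benjamini-Hochberg over 18427 genes and called under 0.05 (the edgeR adjusted p below). Among all genes tested, 18.9% were called higher and 18.8% lower. The 9 calls are 25% of the members, a share not far above that background, while the members had no call downward. The reading depended on scaling: with library size alone 55.6% of members (20) and 20.6% of all genes were called higher. By direction alone, 34 of 36 estimates lay above 0, with a median log2 fold change of 0.37. Of all genes, 47.7% lay above 0, with a median of -0.06. With all 12 libraries 30 members lay above 0, and with protein-coding genes only 31 did. Subunit levels largely moved together between libraries, so tallies of direction, here and below, are descriptions and not tests. The 9 higher members were Psma5, Psma8, Psmb5 and Psmb6 of the core and Psmc3, Psmc4, Psmd2, Psmd3 and Psmd8 of the cap.

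Psmb6, the caspase-like catalytic subunit, stood at 137 and 96.7 CPM in WT CD and at 192, 213 and 261 CPM in HoipA-KO CD. The HoipA-KO libraries were all above the WT libraries, and the log2 fold change was 0.93 ± 0.23 (SE, edgeR adjusted p = 0.0110). Psmb5, the chymotrypsin-like subunit, stood at 103 and 91.9 CPM in WT CD and at 142, 157 and 191 CPM in HoipA-KO CD. Those groups did not overlap either, with a log2 fold change of 0.75 ± 0.21 (SE, edgeR adjusted p = 0.0196). Psmb7, the trypsin-like subunit, stood at 153 and 122 CPM in WT CD and 121, 139.7 and 134 CPM in HoipA-KO CD. Its libraries interleaved and the log2 fold change was -0.06 ± 0.15 (SE, edgeR adjusted p = 0.775). Exons of Psmb7 overlap those of Nek6 on the opposite strand.

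The balance among the catalytic subunits can be read within each library, where no scaling between libraries enters. This ratio was chosen after its values were seen and is given as a description. Psmb6 was counted at 0.895 and 0.793 times Psmb7 in the WT CD libraries and at 0.814, 0.955 and 1.09 times in WT HFD. In HoipA-KO the ratio was 1.59, 1.53 and 1.95 on CD and 1.47, 1.65 and 1.69 on HFD. For Psmb5 the ratio to Psmb7 was 0.673 and 0.754 in WT CD and 0.667, 0.814 and 0.808 in WT HFD, against 1.17, 1.13 and 1.43 in HoipA-KO CD and 0.966, 1.16 and 1.01 in HoipA-KO HFD. Both ratios were higher in each HoipA-KO library than in each WT library on either diet, including WT CD replicate 3 at 1.04 and 0.587.

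**Figure D2:**
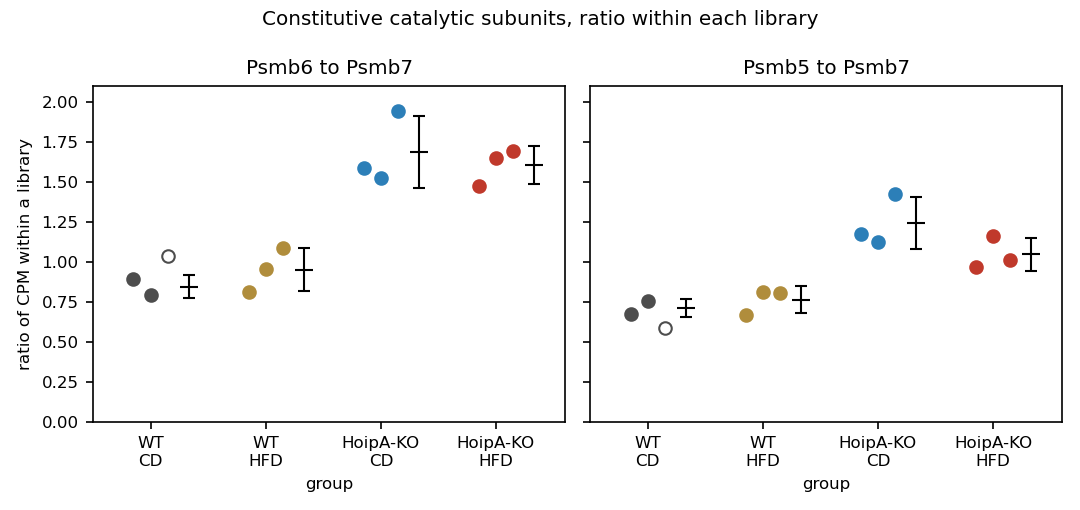
Ratio of CPM of Psmb6 to Psmb7 (left) and of Psmb5 to Psmb7 (right) in each library by group. Points are libraries, the open point is WT CD replicate 3, and the bar to the right of each group is the mean ± SD without that library. All HoipA-KO points lie above all WT points in both panels.

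The stretch of promoter around the start of these genes is shown because Psmb5 and Psmb6 were among the few members that carry the core of the antioxidant response element, the kind of site that NRF1 and NRF2 bind. The RefSeq promoter table (GRCm38.p6) held windows of 300 bases, 250 before and 50 after the start, for 29 of the 36 members, and none for Psma8, Psmb1, Psmb2, Psmb7, Psmc3, Psmd3 and Psmd7. The search used TGACNNNGC for the element's core and CCAAT for the box bound by NF-Y, each on both strands, and no match of one overlapped the other. TGACNNNGC was present in 5 of those 29 genes (Psmb5, Psmb6, Psmc6, Psmd9 and Psmd12), or 16.1% of their 31 windows, against 12.4% of all 32851 windows. CCAAT was present in 12 of the 29 genes, or 38.7% of their windows, against 37.4% of all windows. Of the 6 members called higher on CD that had a window, 2 held TGACNNNGC and 0 held CCAAT. Of the 23 other members with a window, 3 held TGACNNNGC and 12, Psmc3ip among them, held CCAAT. The called members Psma8, Psmc3 and Psmd3 had no window, and the difference between called and other members was not tested. These are matches of letters and not sites shown to be bound. Windows of Psmb6, Psmb5 and Psmd9, where the element's core lies nearest the start, and of Psmd4, which holds 3 CCAAT boxes, are given 5′ to 3′ on the gene's strand, with the matches to TGACNNNGC and CCAAT in capitals. A CCAAT match on the other strand reads ATTGG.
Psmb6 (chr11:70525107-70525406, plus strand): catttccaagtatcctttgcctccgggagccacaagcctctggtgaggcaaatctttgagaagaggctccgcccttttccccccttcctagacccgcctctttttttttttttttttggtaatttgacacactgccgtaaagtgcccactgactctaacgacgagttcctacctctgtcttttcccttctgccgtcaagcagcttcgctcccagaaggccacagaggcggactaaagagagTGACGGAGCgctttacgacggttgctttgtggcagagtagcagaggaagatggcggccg
Psmb5 (chr14:54617946-54618245, minus strand): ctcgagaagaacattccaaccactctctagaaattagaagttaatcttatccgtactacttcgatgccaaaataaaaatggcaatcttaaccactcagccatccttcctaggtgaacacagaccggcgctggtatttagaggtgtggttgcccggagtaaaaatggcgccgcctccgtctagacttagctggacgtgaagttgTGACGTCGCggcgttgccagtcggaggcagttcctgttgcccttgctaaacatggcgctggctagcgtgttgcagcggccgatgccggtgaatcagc
Psmd9 (chr5:123227940-123228239, plus strand): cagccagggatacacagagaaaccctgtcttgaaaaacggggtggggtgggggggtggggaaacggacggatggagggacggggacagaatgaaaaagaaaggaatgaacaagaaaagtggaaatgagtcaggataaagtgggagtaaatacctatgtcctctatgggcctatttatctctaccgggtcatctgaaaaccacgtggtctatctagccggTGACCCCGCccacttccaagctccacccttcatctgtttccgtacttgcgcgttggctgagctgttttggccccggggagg
Psmd4 (chr3:95042565-95042864, minus strand): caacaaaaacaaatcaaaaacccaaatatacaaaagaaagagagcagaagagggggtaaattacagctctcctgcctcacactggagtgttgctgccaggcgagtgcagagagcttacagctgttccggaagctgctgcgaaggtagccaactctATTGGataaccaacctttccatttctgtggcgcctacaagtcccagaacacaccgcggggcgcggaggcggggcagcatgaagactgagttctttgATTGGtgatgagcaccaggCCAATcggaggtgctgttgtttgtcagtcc
The core element begins 9 bases before the start of Psmb6, 47 before that of Psmb5 and 31 before that of Psmd9. Psmb5 and Psmb6 were called higher on CD, whereas Psmd9, a chaperone of cap assembly, stood at 27.1 and 28 CPM in WT CD and 29.7, 29 and 32.3 CPM in HoipA-KO CD (log2 fold change 0.14 ± 0.13, SE, edgeR adjusted p = 0.421). Psmd4, a ubiquitin receptor of the cap, stood at 158 and 104 CPM in WT CD and 137, 145 and 163 in HoipA-KO CD, with overlapping groups (log2 fold change 0.18 ± 0.20, SE, edgeR adjusted p = 0.507).

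Among the alpha subunits on CD, 2 of 8 were higher. Psma5 stood at 81.5 and 78 CPM in WT CD and 117, 145 and 128 CPM in HoipA-KO CD without overlap (log2 fold change 0.71 ± 0.18, SE, edgeR adjusted p = 0.0123). Exons of Psma5 overlap an antisense transcript on the other strand. Psma8, the alpha subunit that takes the place of Psma7 in male germ cells, was low at 0.475 and 0.380 CPM in WT CD and 1.45, 2.35 and 1.32 CPM in HoipA-KO CD. Its estimate was 1.99 ± 0.44 (SE, edgeR adjusted p = 0.00711), and it was -3.89 with all 12 libraries, where WT CD replicate 3 held 73.8 CPM. The somatic Psma7 stood at 112 and 161 CPM in WT CD and 151, 178 and 186 CPM in HoipA-KO CD, where 1 WT library lay among the HoipA-KO libraries (log2 fold change 0.33 ± 0.19, SE, edgeR adjusted p = 0.198). The remaining alpha estimates lay between 0.10 for Psma6 and 0.31 for Psma4, and the beta subunits other than Psmb5, Psmb6 and Psmb7 between 0.14 for Psmb1 and 0.38 for Psmb3. None of these passed the test.

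In the ATPase ring, 2 of 6 members were higher on CD. Psmc4 stood at 86.7 and 70.6 CPM in WT CD and 119, 133 and 136 CPM in HoipA-KO CD. The groups did not overlap and the log2 fold change was 0.72 ± 0.16 (SE, edgeR adjusted p = 0.00685), the lowest adjusted p of the members. Psmc3 stood at 148 and 106 CPM in WT CD and 174, 195 and 205 CPM in HoipA-KO CD without overlap (log2 fold change 0.60 ± 0.18, SE, edgeR adjusted p = 0.0285). With all 12 libraries its estimate was -0.21, with WT CD replicate 3 at 398 CPM. The other ATPases, Psmc1, Psmc2, Psmc5 and Psmc6, had estimates of 0.18 to 0.49 that did not pass.

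Among the 11 non-ATPase cap subunits, 3 were higher on CD and all 11 estimates were above 0. Psmd8, a subunit of the lid of the cap, stood at 154 and 122 CPM in WT CD and 223, 271 and 223 CPM in HoipA-KO CD without overlap (log2 fold change 0.79 ± 0.20, SE, edgeR adjusted p = 0.0128). Psmd2, the scaffold of the cap's base that receives shuttle factors, stood at 226 and 172 CPM in WT CD and 298, 363 and 274 CPM in HoipA-KO CD without overlap (log2 fold change 0.65 ± 0.23, SE, edgeR adjusted p = 0.0476). Psmd3, of the lid, stood at 97.8 and 73 CPM and 120.0, 127 and 124 CPM, again apart (log2 fold change 0.53 ± 0.16, SE, edgeR adjusted p = 0.0287). With the 12 libraries Psmd3 was still called higher while Psmd2 and Psmd8 were not. WT CD replicate 3 held 328 CPM of Psmd2, within the range of the HoipA-KO CD libraries. Psmd14, the deubiquitinase that strips ubiquitin from substrates, stood at 106 and 63.4 CPM in WT CD and 103, 143 and 102 CPM in HoipA-KO CD. Its groups overlapped and its estimate was 0.46 ± 0.25 (SE, edgeR adjusted p = 0.169).

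The 3 assembly chaperones of the cap had 0 calls on CD. Psmd5 stood at 43.6 and 50.1 CPM in WT CD and 44.4, 59 and 39.8 CPM in HoipA-KO CD (log2 fold change 0.03 ± 0.19, SE), and its sign turned under 4 of the 7 other planned settings. Psmd10, also called gankyrin, stood at 16.2 and 59.8 CPM in WT CD and 21.7, 25.5 and 22.5 CPM in HoipA-KO CD. One WT library therefore lay above all the others and the second below them. The estimate of -0.71 ± 0.39 (SE, edgeR adjusted p = 0.177) became 0.52, called higher, without WT CD replicate 2, and -1.37, called lower, without WT CD replicate 1. Either way WT CD then held 1 library, assumed to vary like the other groups. In WT CD replicate 2 the 9 epididymal epithelium markers summed to 14580 CPM, against 1.21 CPM in WT CD replicate 1, and the part of that tissue in the Psmd10 value was not tested.

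The count on CD depended on the WT CD pair. Without WT CD replicate 1 it was 19 members (18 higher and 1 lower, including the 9), and without WT CD replicate 2 it was 5, of which 2, Psma8 and Psmc4, were among the 9. In both cases 1 WT CD library remained, and its spread was taken from the other groups. Without HoipA-KO CD replicate 3 it was 5, with 13.9% of members and 15.8% of all genes called higher. Without HoipA-KO CD replicate 2 it was 6, with 16.7% of members and 15.3% of all genes called higher. Without either of the third replicates on HFD it was also 6, or 16.7%. The share of all genes was then 16.5% without the WT HFD library and 16% without the HoipA-KO HFD library. With all 12 libraries it was 6, and Psma5, Psmb5, Psmb6, Psmc4 and Psmd3 were called both ways. There 16.7% of members and 15.6% of all genes were called higher, so in these fits the members were near the background. With WT CD replicates 2 and 3 the shares were 58.3% and 18.1%, and with replicates 1 and 3 they were 22.2% and 15.6%.

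**Figure D3:**
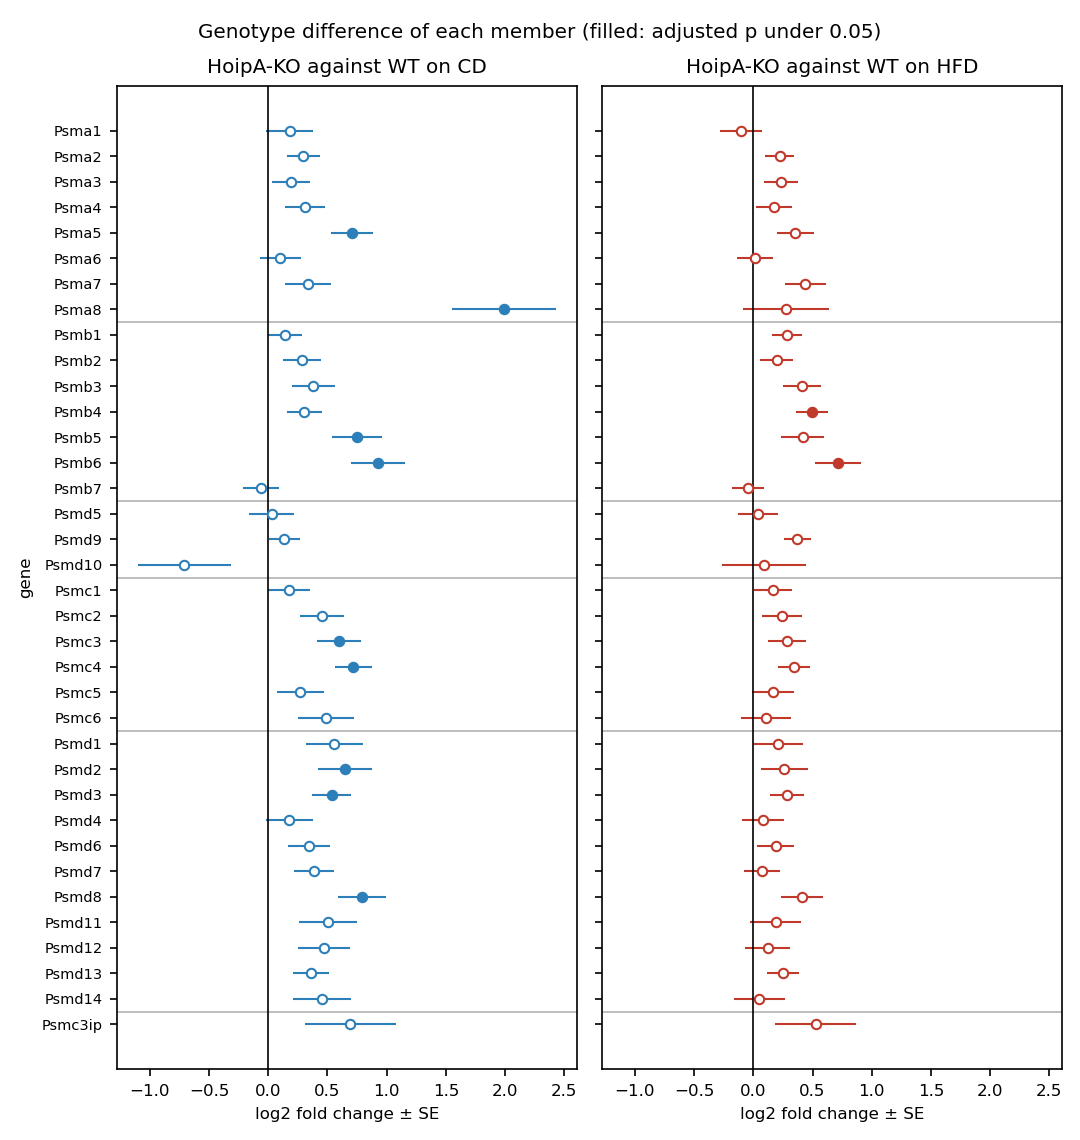
Log2 fold change ± SE of each member, HoipA-KO against WT, on CD (left, blue) and HFD (right, red), from edgeR with 11 libraries. Filled points have an adjusted p under 0.05, and grey lines separate the roles. There are 9 filled points on CD and 2 on HFD, Psmb4 and Psmb6, and Psmb7 sits near 0 in both panels.

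The same comparison on HFD asked whether the genotypes differ when both ate the fat-rich diet. Here 2 of 36 members were higher and 0 lower, where 4.2% of all genes were called higher and 7.62% lower. The 2 calls are 5.56% of the members, near the background in this fit. With library size alone 22.2% of members (8) and 6.94% of all genes were called higher, and with the DESeq2 Wald test 19.4% (7) and 12%. Again 34 of 36 estimates lay above 0, with a median of 0.23, against 53.8% of all genes and a median of 0.06. Psmb6 stood at 92.4, 121 and 119 CPM in WT HFD and 152, 203 and 191 CPM in HoipA-KO HFD. The groups did not overlap and the log2 fold change was 0.71 ± 0.20 (SE, edgeR adjusted p = 0.0462). Psmb4, a beta subunit without a catalytic site, stood at 95.7, 105 and 94.8 CPM in WT HFD and 123, 153 and 141 CPM in HoipA-KO HFD without overlap (log2 fold change 0.49 ± 0.13, SE, edgeR adjusted p = 0.0428). On CD the same gene had stood at 129 and 137 CPM in WT and 149, 159.8 and 183 CPM in HoipA-KO, with an edgeR adjusted p of 0.135.

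Psmb5 on HFD stood at 75.7, 103 and 88.9 CPM in WT and 100.0, 143 and 114 CPM in HoipA-KO, with 1 pair of libraries interleaved (log2 fold change 0.42 ± 0.18, SE, edgeR adjusted p = 0.153). Psmb7 stood at 113, 127 and 110.0 CPM in WT and 104, 123 and 113 CPM in HoipA-KO (log2 fold change -0.05 ± 0.14, SE, edgeR adjusted p = 0.832), and its sign turned to 0.04 without composition scaling. The 3 highest estimates were those of Psmb6, Psmc3ip (0.53, edgeR adjusted p = 0.312) and Psmb4, and the 3 lowest those of Psma1 (-0.11), Psmb7 and Psma6 (0.01). Psma7 stood at 99.5, 107 and 96.1 CPM in WT HFD and 117, 156 and 137 CPM in HoipA-KO HFD, with the groups apart (log2 fold change 0.44 ± 0.17, SE, edgeR adjusted p = 0.117).

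In the cap, 0 of 20 members were called on HFD, although all 20 estimates were above 0, from 0.04 for Psmd5 to 0.41 for Psmd8. Psmd9 was the closest at 23.7, 25.2 and 22 CPM in WT HFD and 27.1, 32.5 and 32 CPM in HoipA-KO HFD (log2 fold change 0.37 ± 0.11, SE, edgeR adjusted p = 0.0623). Those libraries did not overlap. The ubiquitin receptor Psmd4 (0.08), the deubiquitinase Psmd14 (0.05), the scaffold Psmd2 (0.26) and the chaperone Psmd10 (0.09) did not pass. Both HFD calls were lost with all 12 libraries, which gave 0 members, and without either WT HFD replicate 1 or replicate 2, or HoipA-KO HFD replicate 2 or replicate 3, which also gave 0. Without HoipA-KO HFD replicate 2, 26 of 36 estimates lay above 0 in place of 34. Without HoipA-KO CD replicate 1 or 2 the count was 0 as well, without WT HFD replicate 3 it was 1, and without WT CD replicate 2 or HoipA-KO HFD replicate 1 it was 3.

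Markers of other cells moved with the genotype beside these values. On CD, 10 of 10 macrophage markers were higher and 9 of 10 adipocyte markers lower in HoipA-KO, and 6 of 6 proliferation genes were higher. Macrophage markers summed to 607 to 781 CPM in WT CD and 12773 to 17260 CPM in HoipA-KO CD. The proliferation genes summed to 19.4 to 19.7 CPM in WT CD and 165 to 323 CPM in HoipA-KO CD. On HFD, 4 of 10 macrophage markers were higher and 10 of 10 adipocyte markers lower, with macrophage sums of 2303 to 7067 CPM in WT and 8644 to 15566 CPM in HoipA-KO. Mast cell markers were higher for 5 of 5 genes on CD and 2 of 5 on HFD. Of 5 endothelial markers, 2 were lower on either diet, and of 5 progenitor markers 1 was higher on CD and 1 lower on HFD. Of 6 tested testis germ cell markers, 5 were lower on CD and 1 on HFD, with sums of 22 to 221 CPM in WT CD and 8.01 to 9.69 CPM in HoipA-KO CD. Of 9 epididymal epithelium markers, 1 was lower on CD and 0 on HFD, where HoipA-KO HFD replicate 1 held 1279.9 CPM and HoipA-KO HFD replicate 2 had 8 of the 9 at 0 counts. The part of any of these cells in the subunit levels was not tested.

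**Figure D4:**
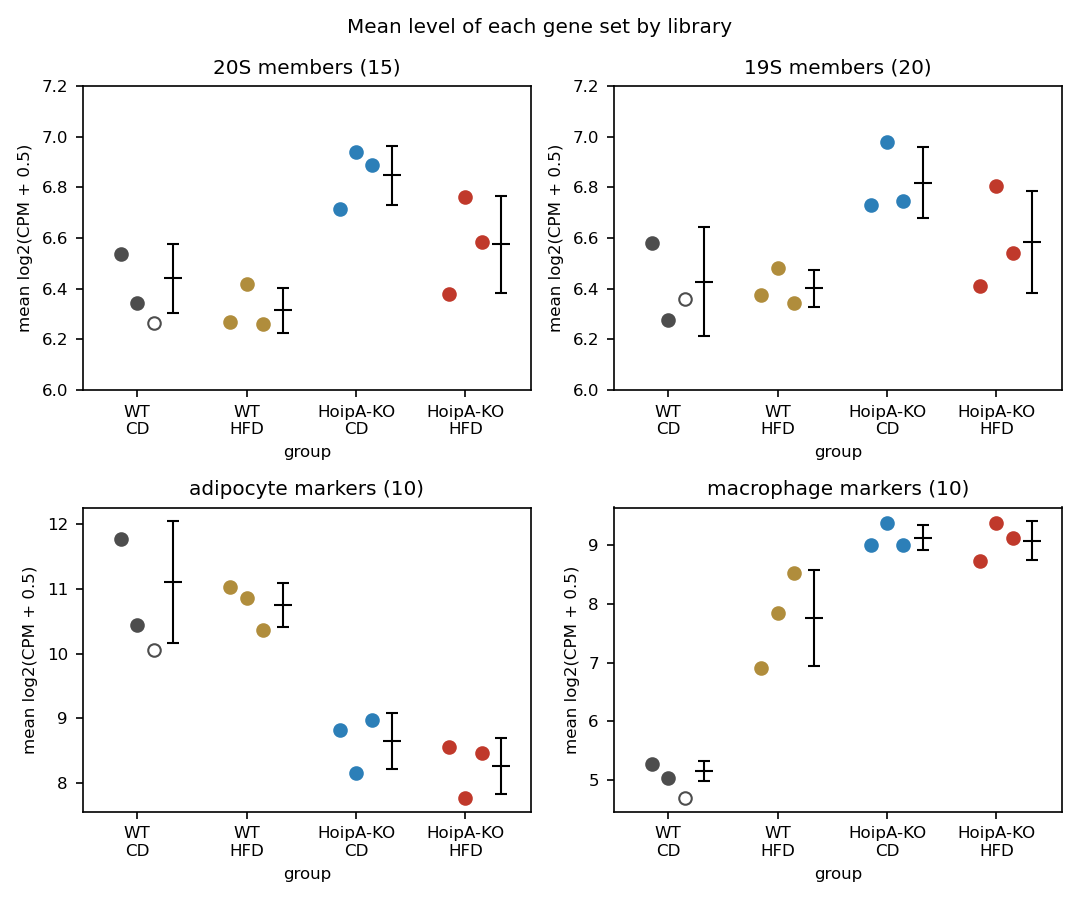
Mean log2(CPM + 0.5) over the 15 core members, the 20 cap members, 10 adipocyte markers and 10 macrophage markers in each library by group. Points are libraries, the open point is WT CD replicate 3, and the bar to the right of each group is the mean ± SD without it. Core and cap are highest in HoipA-KO CD, and adipocyte and macrophage markers differ more widely between groups than either.

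Core and cap were then set against each other over the 4 groups. The mean log2(CPM + 0.5) of the 15 core members was 6.54 and 6.34 in the WT CD libraries, 6.27, 6.42 and 6.26 in WT HFD, 6.72, 6.94 and 6.89 in HoipA-KO CD and 6.38, 6.76 and 6.59 in HoipA-KO HFD. For the 20 cap members it was 6.58 and 6.28 in WT CD, 6.38, 6.48 and 6.35 in WT HFD, 6.73, 6.98 and 6.75 in HoipA-KO CD and 6.41, 6.80 and 6.54 in HoipA-KO HFD. HoipA-KO CD lay above WT CD in each library for both classes. The core minus the cap ran from -0.11 to 0.14 over the 11 libraries. It was lowest in WT HFD, at -0.11, -0.07 and -0.09, below each of the other 8 libraries. That gap rested in part on Psma8: without it the difference was 0.30, 0.36 and 0.30 in WT HFD and 0.40, 0.35 and 0.57 in HoipA-KO CD, which overlapped. In WT CD it was then 0.43 and 0.53, and in HoipA-KO HFD 0.39, 0.35 and 0.46. With the 3 chaperones left out as well, the difference ran from 0.01 to 0.39, highest in WT CD replicate 2. WT CD replicate 3, outside these ranges of 11 libraries, stood at -0.10 with all members, which lies among the WT HFD values. It stood at -0.09 without Psma8 and at -0.42 without the chaperones as well.

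Between genotypes the median log2 fold change on CD was 0.30 for the core (4 of 15 called) and 0.45 for the cap (5 of 20 called). On HFD the order was turned, at 0.28 for the core (2 of 15 called) and 0.19 for the cap (0 of 20 called). The order on CD rested on the WT CD libraries used, since with all 12 the medians were 0.45 for the core and 0.38 for the cap. With WT CD replicates 2 and 3 they were 0.72 and 0.54, and with replicates 1 and 3 they were 0.57 and 0.34. With protein-coding genes only, they were 0.16 for the core and 0.32 for the cap. Within the core on HFD, the beta subunits had a median of 0.41 and the alpha subunits 0.23. The cap's ATPases and non-ATPases had medians of 0.47 and 0.47 on CD and 0.20 and 0.19 on HFD. These medians are descriptions and the difference between the classes was not tested.

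Diet was compared within each genotype, and no member passed the test in either. In WT, 0 of 36 members differed between HFD and CD by edgeR, where 14.8% of all genes did. At an unadjusted p under 0.05 there were 4 members, DESeq2 called 3 (Psma8, Psmb1 and Psmb4), and the median estimate was -0.07. Psma8 had the highest estimate (1.33 ± 0.43, SE, edgeR adjusted p = 0.0639), at 0.475 and 0.380 CPM on CD and 0.983, 0.941 and 1.32 CPM on HFD. The next highest were Psmc3ip (0.19) and Psmd8 (0.18), and the lowest were Psmd10 (-0.88), Psma7 (-0.43) and Psmb4 (-0.43, edgeR adjusted p = 0.0765). All 7 beta estimates were below 0, and the 11 non-ATPase subunits divided into 6 above and 5 below. With all 12 libraries 14 estimates changed sign, Psma8 to -4.51 and Psmc3ip to -3.36 among them, and the count stayed at 0. Without WT CD replicate 1 it was 2 (Psma7 and Psmd10, both lower), and without HoipA-KO CD replicate 3 or HoipA-KO HFD replicate 1 it was 1 (Psmb4, lower).

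In HoipA-KO, 0 of 36 members differed between HFD and CD and 0% of all 18427 genes did by edgeR, while 415 genes and 2 members, Psma5 and Psmb5, had an unadjusted p under 0.05. DESeq2 called 7 genes and 0 members. Deviations of same-numbered HoipA-KO libraries correlated across diets at 0.12 to 0.48, against -0.50 to 0.27 for the other pairs. The labels do not say what a number marks, so the pairing was taken from these overlapping values. A fit of the 6 HoipA-KO libraries alone with the number as a block called 0 members and 0 genes. In that fit 15 members had an unadjusted p under 0.05, as did 1300 of 16826 genes, and 34 of 36 estimates were again below 0. In the fit of 11 libraries, 34 of 36 estimates lay below 0, with a median of -0.24. Of all genes, 47.2% lay above 0, with a median of -0.01. Because the members shift together from library to library, this shared direction is a description and not a test. Psmb5 stood at 142, 157 and 191 CPM on CD and 100.0, 143 and 114 CPM on HFD (log2 fold change -0.46 ± 0.18, SE, edgeR adjusted p = 1.00). Its groups overlapped by 1 library. The next lowest were Psmc6 (-0.40) and Psmd11 (-0.38), and the highest were Psmc3ip (0.02), Psmd9 (0.01) and Psmd10 (-0.09). Psmb6 stood at 192, 213 and 261 CPM on CD and 152, 203 and 191 on HFD, with overlapping groups (log2 fold change -0.29 ± 0.20, SE, edgeR adjusted p = 1.00).

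Whether the genotype difference changed with diet was tested by the interaction, which called 0 of 36 members by edgeR and by DESeq2, and 3.91% of all genes by edgeR. At an unadjusted p under 0.05 there was 1 member, Psma8 (-1.71 ± 0.56, SE, edgeR adjusted p = 0.114). Without WT CD replicate 1 the count was 1, Psmd10. Estimates were below 0 for 27 of 36 members. That direction depended on single libraries: 19 of 36 lay above 0 without HoipA-KO HFD replicate 1, and 16 without WT CD replicate 2 or HoipA-KO CD replicate 3. After Psma8 the lowest was Psmd14 (-0.41), followed by Psmd2 (-0.39), and the highest were Psmd10 (0.79), Psmd9 (0.23) and Psmb4 (0.19). Psmb6 had an estimate of -0.21 ± 0.29 (SE) and Psmb7 one of 0.01 ± 0.20 (SE). Thus the 9 calls on CD against 2 on HFD do not show that the genotype difference changed with diet for any member.

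Related genes outside the rule were read from lists. Beside their counts stand the shares of all genes called, 18.9% higher and 18.8% lower on CD and 4.2% and 7.62% on HFD. The inducible catalytic subunits replace Psmb5, Psmb6 and Psmb7 to form the immunoproteasome, and 2 of the 3 were higher on CD. Psmb8, which replaces Psmb5, stood at 34.8 and 24.6 CPM in WT CD and 67.3, 54.9 and 73.1 CPM in HoipA-KO CD (log2 fold change 1.13 ± 0.25, SE, edgeR adjusted p = 0.00679). It was also higher on HFD than on CD in WT, at 49, 49.4 and 60.3 CPM (log2 fold change 0.83 ± 0.24, SE, edgeR adjusted p = 0.0487). Psmb10, which replaces Psmb7, stood at 38.2 and 20.9 CPM in WT CD and 52.5, 42.2 and 66.8 CPM in HoipA-KO CD (log2 fold change 0.86 ± 0.29, SE, edgeR adjusted p = 0.0394). Psmb9, which replaces Psmb6, stood at 18.2 and 15.2 CPM and 23.1, 16.5 and 26.7 CPM with overlap (log2 fold change 0.40 ± 0.28, SE, edgeR adjusted p = 0.282). On HFD 0 of the 3 differed between genotypes.

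Of the 7 genes of the NRF1 axis, 2 (28.6%) were higher and 1 (14.3%) lower on CD, against 18.9% and 18.8% of all genes. Nfe2l1, encoding NRF1, stood at 555 and 284 CPM in WT CD, 581, 544 and 504 in WT HFD, 285, 313 and 279 in HoipA-KO CD and 292, 301 and 274 in HoipA-KO HFD. The WT libraries other than WT CD replicate 2 lay above all the others, and WT CD replicate 3 held 255 CPM. The log2 fold change was -0.52 ± 0.24 on CD (SE, edgeR adjusted p = 0.117) and -0.91 ± 0.22 on HFD (SE, edgeR adjusted p = 0.0329), so the call of lower Nfe2l1 was made on HFD. With all 12 libraries that call was lost (edgeR adjusted p = 0.0831). Ddi2, the protease that cleaves NRF1 into its active form, was higher on CD at 50.9 and 40.0 CPM in WT and 90.7, 116 and 65.8 in HoipA-KO (log2 fold change 1.00 ± 0.28, SE, edgeR adjusted p = 0.0199). Ngly1, which removes its sugars, was lower at 63 and 37.9 CPM and 34.1, 36.6 and 26.1 CPM (log2 fold change -0.65 ± 0.22, SE, edgeR adjusted p = 0.0432). Nfe2l2, encoding NRF2, was higher at 79.2 and 77.7 CPM and 140.2, 173 and 113 CPM (log2 fold change 0.86 ± 0.21, SE, edgeR adjusted p = 0.0127).

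Assembly, activation and substrate delivery gave few calls. Among the 5 assembly chaperones of the core, Psmg1 was lower on CD at 24 and 19.3 CPM in WT and 13, 13.5 and 13.7 CPM in HoipA-KO (log2 fold change -0.69 ± 0.17, SE, edgeR adjusted p = 0.0118). Pomp, the chaperone that completes the core, was not called at 138 and 111 CPM in WT CD and 136, 158 and 157 CPM in HoipA-KO CD (0.27). The activators Psme1, Psme2, Psme3 and Psme4 and the inhibitor Psmf1 had 0 calls on either diet, with estimates of 0.34, 0.05, 0.06 and -0.08 for the activators on CD. On HFD those were 0.36, -0.06, -0.13 and -0.39. The 6 further cap partners, such as the deubiquitinases Usp14 and Uchl5, also had 0 calls on either diet. With all 12 libraries 2 of these 6 were called higher on CD, where 15.6% of all genes were. Of 5 shuttle factors, Ubqln1 was lower on CD (log2 fold change -0.61 ± 0.18, SE, edgeR adjusted p = 0.0270). Among ubiquitin and E1 genes, Rps27a, a ribosomal protein fused to ubiquitin, was higher on HFD (log2 fold change 0.81 ± 0.19, SE, edgeR adjusted p = 0.0275). With all 12 libraries the calls of Ubqln1 on CD (edgeR adjusted p = 0.0686) and of Rps27a on HFD (0.141) were lost, while those of Psmb8, Psmb10, Psmg1, Nfe2l2, Ddi2 and Ngly1 on CD were made again.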

How the data were processed

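RNA from gonadal fat of 4 groups of male mice, 3 libraries a group, was polyA-selected, stranded and sequenced. Per the labels, the authors trimmed reads with Trim Galore 0.6.7, aligned them with STAR 2.7.10a and quantified genes with Salmon 1.5.2. The submitters' processing notes name GRCm38, while the methods of the study name a human build for the mouse reads. The files used here hold deposited estimated counts per gene from Salmon, neither normalised nor filtered, with 55281 genes and a table of protein-coding genes from which members were taken.

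Estimated counts were rounded. Genes passing edgeR's filterByExpr were scaled by TMM and fitted with 1 mean per group (edgeR 4.0.16, R 4.3.3), and tested by quasi-likelihood with Benjamini-Hochberg adjustment over 18427 genes at 0.05. The fit used 11 libraries, leaving out WT CD replicate 3 as the study's comparisons do. Its values are on the scale of the other 11. CPM values use TMM-scaled library sizes. p-values measure the spread between pools. The members and lists were chosen with earlier results of these data known. Genes named are the 3 highest and 3 lowest members of each comparison, catalytic and other key subunits, called members, the inducible subunits, Nfe2l1, Pomp, the activators, and list genes past the threshold. One gene of the ubiquitin list is not reported here. The scripts were tested on simulated counts. Alternatives were DESeq2 1.42.0 (size factors and its Wald test), library size alone, no filter, protein-coding genes only, 12 libraries, a replicate block and each library left out. The WT CD pairs with replicate 3, and a fit of the HoipA-KO libraries alone with the replicate number as a block, were chosen after the data were seen. The labels do not say what a number marks. Between CD and HFD in HoipA-KO the deviations of the 3 same-numbered pairs correlated at 0.12 to 0.48, and those of the 6 other pairs at -0.50 to 0.27. These ranges overlap, so the pairing in that block is an assumption drawn from the same data. No column of the authors' comparisons was used.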

Additional observations from a re-analysis of the deposited data

Results flagged for a closer look

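In the library left out of the fit, WT CD replicate 3, 5 members stood above every other library, and 4 of them by more than 1.5 times. The fifth, Psma6, stood at 223 CPM, against 116 to 163 CPM in the other 11 libraries. Psma8 reached 73.8 CPM, against 0.38 to 2.35 CPM in the other 11 libraries. Psmc3ip reached 56.8 CPM, against 1.09 to 3.25 CPM. Psmc3, an ATPase of the cap, reached 398 CPM, against 106 to 205 CPM, and another ATPase, Psmc2, reached 239.9 CPM, against 83.6 to 157 CPM. The 7 testis germ cell markers summed to 7023 CPM in that library and to 4.74 to 221 CPM in the others, and their part in the values of these members was not tested.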

How the results depend on the processing

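Over the 7 planned settings, single members stayed on their side of the threshold in 1216 values (sign changes of uncalled members included), gained a call in 29, lost one in 13 and reversed in 2, and with libraries left out in turn these numbers were 1922, 19, 38 and 1. For HoipA-KO against WT on CD (9 members called), the count was 20 with library size alone, 8 with protein-coding genes only, 9 with DESeq2 size factors, 10 with the DESeq2 Wald test and 6 without the filter or with all 12 libraries. The shares of members and of all genes called higher were 22.2% and 18.1% with protein-coding genes only. They were 25% and 18.4% with DESeq2 size factors, 27.8% and 21% with the DESeq2 Wald test and 16.7% and 9.31% without the filter. On HFD (2 members), it was 8 with library size alone, 7 with the DESeq2 Wald test and 0 without the filter or with 12 libraries. For HFD against CD in WT (0 members), it was 1 with library size alone, 1 with protein-coding genes only and 3 with the DESeq2 Wald test. Leaving out 1 library at a time gave 5 to 19 on CD, 0 to 3 on HFD, 0 to 2 for diet in WT, 0 for diet in HoipA-KO and 0 to 1 for the interaction. With WT CD replicates 2 and 3, a choice made after seeing the data, the counts were 23 on CD, 1 on HFD, 4 for diet in WT and 2 for the interaction, and with replicates 1 and 3 they were 10, 0, 2 and 0.

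Some members reversed. With 12 libraries Psma8 was -3.89 and Psmc3 -0.21 on CD, and Psmd10 ran from -1.37 without WT CD replicate 1 to 0.52 without WT CD replicate 2. With WT CD replicates 2 and 3, Psma8 was -4.42, Psmc3 -0.38 and Psmc3ip -3.41 on CD, and Psma8 -5.04 and Psmc3ip -3.88 for diet in WT. With replicates 1 and 3, Psma8 was -4.45, Psmd10 0.60, Psmc3 -0.52 and Psmc3ip -3.40 on CD, and Psma8 -5.07 and Psmc3ip -3.87 for diet in WT. Beyond the values of WT CD replicate 3 itself, the cause was not tested.

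Scaling on protein-coding genes moved the median of all genes by -0.14 on CD and by 0.11 for the interaction, and library size alone moved it by 0.11 for diet in HoipA-KO. The share of calls that were higher moved from 35.5% to 53.0% (library size alone) or 49.4% (DESeq2 Wald test) on HFD, from 63.1% to 75.7% or 52.6% for diet in WT, and from 8.46% to 38.1% (DESeq2 Wald test) for the interaction. The replicate numbers did not pair the samples across all groups: of 15 same-numbered pairs, 6 had a correlation of deviations over 0.1, with a range of -0.41 to 0.48. Between CD and HFD in HoipA-KO all 3 did. With the number as a replicate block, 6 members were called on CD, 2 on HFD and 0 in the other comparisons, and the HoipA-KO libraries alone, blocked, gave 0 for diet.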
